A study of Bos taurus with 14 samples.

Results

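Conceptuses that grew from Grade 3 embryos were set against short conceptuses that grew from Grade 1 embryos. The members were taken from the labels alone: 3 conceptuses labelled Grade 3, and the 5 Grade 1 conceptuses whose length characteristic reads short. These 8 were among 14 Holstein conceptuses profiled in all, each on its own Affymetrix bovine expression array. Embryos came from superovulated Holstein cows inseminated with the semen of 1 bull. They were recovered on Day 6.5, scored by morphology, and placed by grade into recipient heifers, 2 to 6 per heifer. Conceptuses were flushed out on Day 15, and 250 ng of total RNA from each was labelled. No treatment or genetic change was applied in either group.

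Grade 3 held 2 males and 1 female, and short Grade 1 held 2 males and 3 females. The Grade 3 conceptuses carry no length in the labels used here, so their length relative to the short group is not known from these data. For short replicate 1 the source name says long while the length characteristic says short, and the characteristic was followed. The labels do not tie conceptuses to dams or recipients. Conceptuses of a litter may therefore count as separate samples, and the p-values measure the spread between these 8 samples. Sample titles carry 6 prefixes of unstated meaning, 2 among Grade 3 and 4 among short Grade 1, and 0 prefixes hold both groups.

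In cattle the trophoblast turns from a sphere into a long filament around this stage, well before attachment to the uterus. The trophectoderm forms the outer epithelium and secretes interferon tau, which prevents regression of the corpus luteum. The hypoblast lines it from inside and makes plasma-type proteins such as apolipoproteins, and the epiblast disc gives rise to the embryo proper. A grade is a visual score of the early embryo, in which a higher number stands for poorer morphology. The question addressed was whether poorer embryos that survived to Day 15 differ from good embryos whose conceptuses had stayed short.

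The labelled tissue was checked by its defining genes. Interferon tau (IFNT2), the trophoblast glycoprotein PAG11 and the simple-epithelium keratin KRT18 lay between 14.29 and 14.60 on the log2 scale on all 8 arrays, near the highest value of the series, 14.61. XIST, the RNA that coats the silenced X chromosome, measured 8.59 to 9.41 in the 4 females and 3.72 to 4.33 in the 4 males, so the sex labels of all 8 matched. Arrays of different groups were about as far apart as arrays of one group. The Euclidean distance over all probe sets had a median of 44.9 among Grade 3 (3 pairs), 47.2 among short Grade 1 (10 pairs) and 49.6 between the groups (15 pairs). Short replicate 1 and short replicate 5 were the pair farthest apart within a group, at 61.7. On the first principal component (28.0% of variance) Grade 3 scored 14.3, 0.059 and 20.7 and short Grade 1 scored 17.3, 5.42, -8.39, -16.8 and -32.6, so the groups overlapped. That component separated the sexes, with males at 5.42 to 20.7 and females at -32.6 to 0.059, so its overlap says little about grade. On the second (20.4%) Grade 3 scored 6.76, 6.31 and 22.8. Short Grade 1 scored -29.2, -11.5, 10.3, -5.92 and 0.422 there, and overlapped Grade 3 only through short replicate 3. The spread of a probe set was of like size in both groups, with a median SD of 0.123 in Grade 3 and 0.148 in short Grade 1.

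No probe set passed the test. limma called 0 of 24016 probe sets (0%) at an adjusted p of 0.05. The smallest adjusted p was 0.141 and the next 0.405. At an unadjusted p under 0.05 there were 2054 probe sets (8.55%), 807 with a higher and 1247 with a lower mean in Grade 3. The interval around a difference says how large a missed effect could be. At the median probe set the 95% interval reached 0.24 log2 units to each side, and for 97.2% of probe sets it lay wholly within a change of 2 fold. It lay within 1.5 fold for 87.5%. For most of the array, then, differences of 2 fold, and also of 1.5 fold, between the group means fell outside the interval, whereas smaller differences could lie inside it. Since RMA values at low signal make differences too small, the interval of a dim probe set bounds the measured difference only. Among 9155 named genes, each taken by its brightest probe set, 27 averaged 2 fold or more above and 10 averaged 2 fold or more below short Grade 1.

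**Figure D1:**
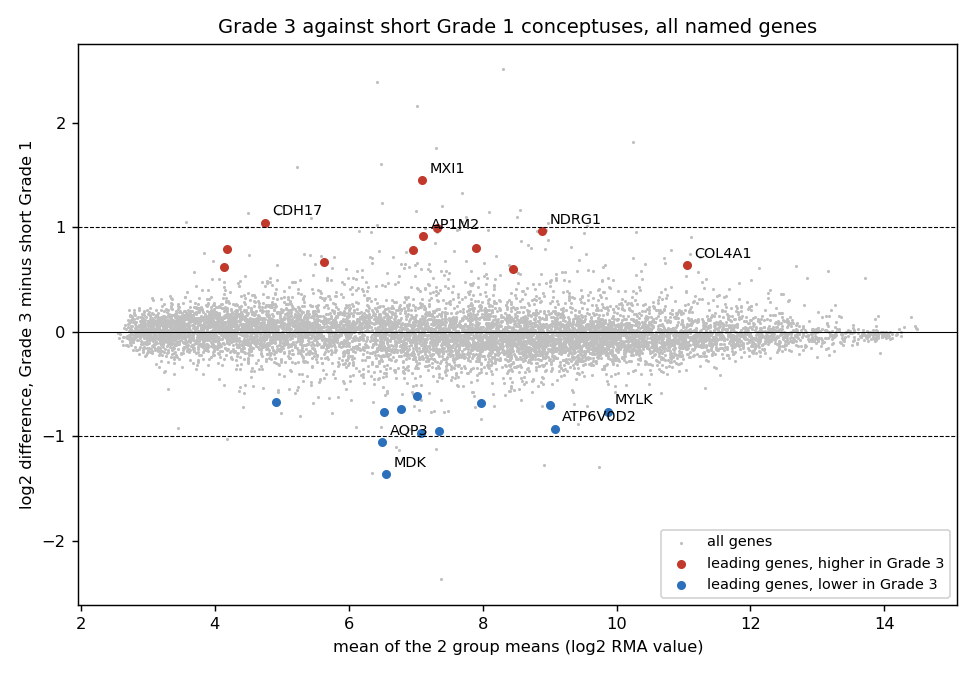
Each grey point is a named gene, with the mean of the group means on the x axis (log2 RMA value) and the log2 difference, Grade 3 minus short Grade 1, on the y axis. Red and blue points are the 24 leading genes described in the text, and dashed lines mark 2 fold. Most genes lie close to 0, and none of the points passed limma at an adjusted p of 0.05.

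Complete separation of the samples was counted as a second description. In 224 genes (2.45%) every Grade 3 value lay above every short Grade 1 value, and in 453 genes (4.95%) every Grade 3 value lay below. These shares are the background for the counts given for gene groups further on. The 24 genes described next were taken because they had the smallest p among genes differing by 1.5 fold or more, 12 in each direction. None passed the test, and since the choice was made on these values their separation supports nothing further. In all 24 the long Grade 1 conceptuses differed in mean from the short ones in the same direction as Grade 3 did. limma called that difference at an adjusted p under 0.05 in all but AP1M2, NOSTRIN, SLC2A2, TOMM5, MYLK and TRAF3IP1. The long comparison shares the short conceptuses, on whose values these genes were chosen, so a match in direction was favoured in advance. Whether a difference was particular to Grade 3 cannot be told from it.

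The gene with the smallest p was AP1M2, which encodes the medium subunit of the clathrin adaptor of polarised epithelia. It measured 7.68, 7.62 and 7.42 in Grade 3 and 6.78, 6.58, 6.58, 6.84 and 6.50 in short Grade 1. All 3 Grade 3 values lay above all 5 short ones, with means of 7.57 ± 0.13 (SD, n = 3) and 6.66 ± 0.14 (SD, n = 5). The log2 difference was 0.92 ± 0.10 (SE; limma adjusted p = 0.141), or 1.89 fold. Its dimmer probe set gave 0.22 ± 0.14 (SE), and the mean of both gave 0.57. Over the 17 alternative settings the adjusted p ranged from 0.0766 to 0.471.

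CDH17, the liver-intestine cadherin of epithelial adhesion, measured 5.53, 5.197 and 5.07 in Grade 3 and 4.18, 4.14, 4.05, 4.03 and 4.71 in short Grade 1. The groups did not overlap, at a difference of 1.04 ± 0.17 (SE; limma adjusted p = 0.437), and short replicate 5 lay closest to Grade 3. MXI1, a MAX partner that opposes MYC, measured 7.52, 7.51 and 8.43 against 6.28, 6.30, 6.96, 6.56 and 5.76. Its 3 probe sets gave 1.45, 1.13 and 0.51. NDRG1, a gene known to respond to hypoxia and stress, measured 9.51, 8.74 and 9.86 against 8.18, 8.69, 8.55, 8.44 and 8.19. Grade 3 replicate 2 lay just above the highest short value there and well below the other two Grade 3 conceptuses.

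Matrix genes were among those with higher means. SPARC, a matrix-binding glycoprotein, measured 8.74, 8.56 and 8.97 in Grade 3 and 8.29, 8.06, 8.31, 7.97 and 8.15 in short Grade 1, a difference of 0.60 ± 0.12 (SE). COL4A1, a chain of basement membrane collagen, averaged 11.37 against 10.73, and its 2 probe sets gave 0.64 and 0.60. It was the only one of the 24 whose groups overlapped. The lipase activator ABHD5 measured 7.86, 7.601 and 7.99 against 7.16, 7.08, 6.82, 6.66 and 6.40. The remaining genes of this side were NOSTRIN, which regulates traffic of endothelial nitric oxide synthase (0.67), coagulation factor V (F5, 0.80), the transcriptional repressor GFI1 (0.79), the glycosyltransferase GALNT17 (0.79) and the glucose transporter SLC2A2 (0.62). SLC2A2 averaged only 4.45 and 3.83, below the median probe set of 5.66, and its other probe set gave -0.058.

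On the other side stood MDK, a heparin-binding growth factor also called midkine. It measured 5.39, 6.67 and 5.58 in Grade 3 and 7.67, 7.24, 6.91, 7.04 and 7.35 in short Grade 1. Every Grade 3 value was below every short one, at -1.36 ± 0.28 (SE; limma adjusted p = 0.437). The 2 lower values came from the males of Grade 3 and the higher from its female, whereas the males of short Grade 1 did not lie below its females. Without Grade 3 replicate 2 the difference was -1.76.

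Genes of transport and epithelial function followed. The lactate exporter SLC16A3 measured 8.46, 8.83 and 8.66 in Grade 3 and 9.32, 9.64, 9.25, 9.47 and 9.06 in short Grade 1 (-0.70 ± 0.14, SE), but its 2 dimmer probe sets gave 0.028 and 0.17. AQP3, a channel for water and glycerol, measured 6.14, 6.28 and 5.50 against 6.94, 6.80, 6.59, 7.14 and 7.67 (-1.06 ± 0.25, SE). The iodide symporter SLC5A5 measured 6.32, 6.90 and 6.56 against 7.14, 7.27, 7.64, 8.07 and 7.69. In each of these 3 genes the groups were separate in the probe set used. ATP6V0D2, a subunit of the vacuolar proton pump, measured 8.77, 8.78 and 8.30 against 10.05, 9.44, 9.06, 9.47 and 9.69.

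The other leading genes with lower means differed by 0.61 to 0.95 log2 units. MYLK, the kinase that activates smooth muscle myosin, averaged 9.48 against 10.25, and its 2 probe sets gave -0.76 and -0.78. The junctional adhesion molecule JAM2 gave -0.68 and -0.79 in its 2 probe sets, and the tetraspanin TSPAN12 gave -0.77 and -0.82. TMEFF1, a membrane protein with follistatin-like domains, stood at -0.95. The adenylate kinase AK1, the cilium transport factor TRAF3IP1 and TOMM5, a part of the mitochondrial import pore, stood at -0.73, -0.67 and -0.61.

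**Figure D2:**
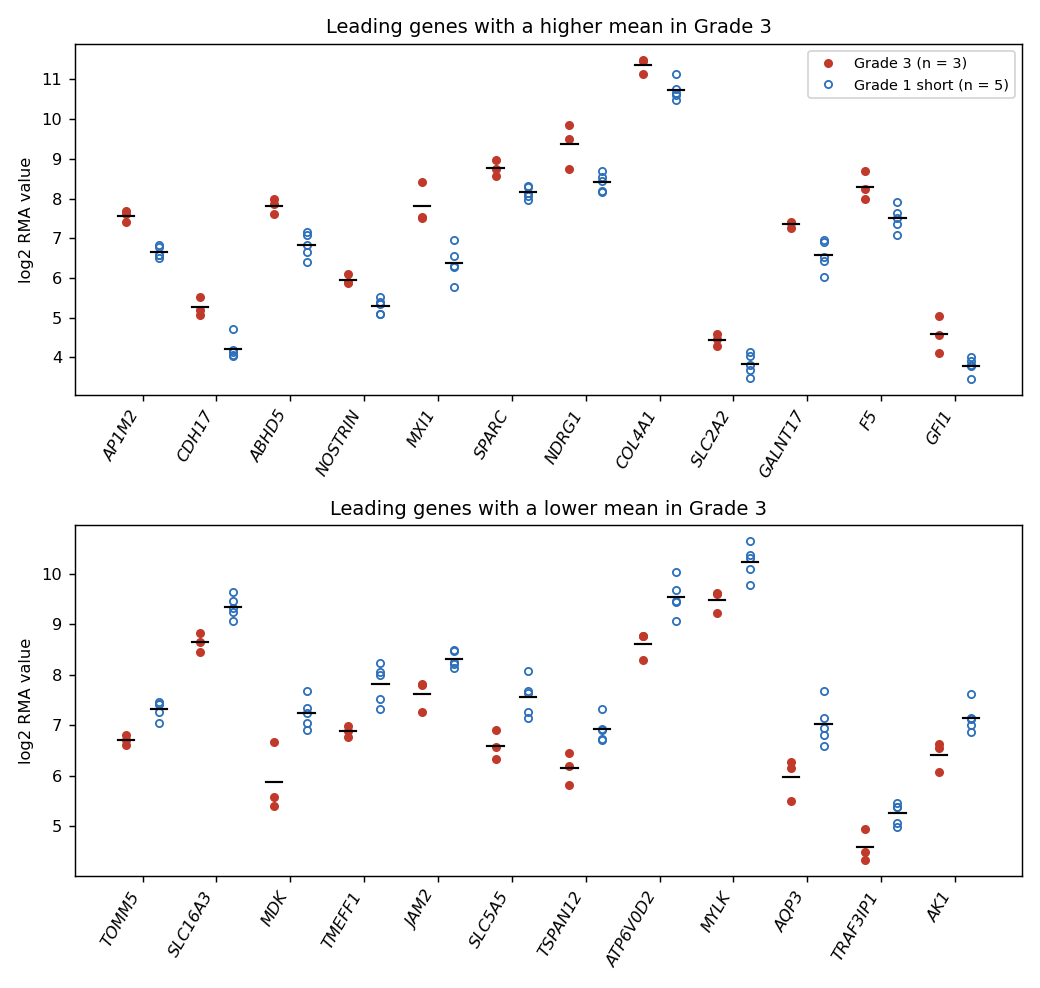
Each point is 1 conceptus and the y axis is its log2 RMA value, for the 24 genes of smallest p among those differing by 1.5 fold or more; black bars are group means. Filled red points are Grade 3 (n = 3) and open blue points are short Grade 1 (n = 5). The groups do not overlap in 23 of the 24, all but COL4A1, and none passed limma at an adjusted p of 0.05.

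Gene groups were then read from 30 lists of pathway and marker genes. Of their members, 0 were called in any list, so counts of separated genes, means and medians are given as description. Over all genes the median log2 difference was -0.021, and 44.3% of genes had the higher mean in Grade 3.

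Secreted products of the trophoblast were taken first. IFNT2 measured 14.56, 14.48 and 14.48 in Grade 3 and 14.45, 14.48, 14.60, 14.52 and 14.37 in short Grade 1, so the groups overlapped (0.024 ± 0.077, SE; limma adjusted p = 0.945). The sign of this difference turned in 4 of 16 alternatives, and its values lie near the highest of the series. In its list, all 4 measured genes had the higher mean in Grade 3 and 0 were separated, with a median of 0.17. The trophoblast Kunitz protein TKDP2 had the smallest p there, at 4.54 against 4.34.

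Among 20 measured pregnancy-associated glycoproteins, aspartic-protease relatives secreted by the trophoblast, 2 were separated upward, 0 downward, and the median was 0.089. PAG2 measured 13.91, 14.02 and 13.97 in Grade 3 and 13.76, 13.71, 13.72, 13.61 and 12.48 in short Grade 1, where replicate 5 stood far below the rest. PAG4, the member of smallest p, averaged only 3.47 and 3.25. PAG12 measured 8.46, 9.05 and 7.55 against 8.72, 6.96, 7.07, 7.20 and 5.18, and overlapped through short replicate 1. PAG11, the brightest member, stood at 0.053, with values near the highest of the series. Of 20 members, 16 lay below the median level of the array. With dim probe sets left out the median was 0.32, which thus rests on few genes and does not describe the family.

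Placental hormones and steroid enzymes held 15 measured genes with a median of 0.029. The 1 separated gene was the placental lactogen CSH2, whose means of 3.47 and 3.40 differ by 0.073 at a level near the floor of the array. HSD17B1, the bright estrogen-forming dehydrogenase of the list, measured 11.73, 12.62 and 12.93 against 11.31, 12.13, 12.69, 12.57 and 12.03. Its difference of 0.28 ran from 0.029 to 0.63 with each conceptus left out in turn. The cholesterol importer STAR had the smallest p, at -0.65 ± 0.40 (SE), with overlapping groups.

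Among lineage genes, the 16 measured transcription factors of the trophectoderm had a median of -0.068. DLX5 alone was separated, at 8.17, 8.19 and 8.50 in Grade 3 and 7.99, 7.98, 7.95, 8.05 and 7.17 in short Grade 1. SOX15 had the smallest p (-0.31), and ASCL2, the brightest and a factor that maintains trophoblast progenitors, stood at -0.11. The 16 keratin and junction genes had a median of 0.00057 and 0 separated members. KRT18, with values near the highest of the series, stood at 0.040 ± 0.069 (SE), and TJP1, a tight junction scaffold, at 0.38 ± 0.18 (SE). The intervals of all 16 keratin and junction genes lay within 2 fold, and that of KRT18 bounds the measured difference only.

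Of 21 hypoblast genes 2 were separated upward and 1 downward, with a median of 0.057. The apolipoprotein APOA1 measured 13.10, 13.01 and 13.19 in Grade 3 and 12.65, 12.69, 12.78, 12.38 and 12.43 in short Grade 1. Grade 3 lay above throughout, by 0.51 ± 0.11 (SE; limma adjusted p = 0.437). The signalling ligand BMP2 measured 8.08, 7.70 and 8.23 against 7.36, 7.29, 7.16, 6.36 and 5.80, a difference of 1.21 ± 0.34 (SE). PDGFRA, a growth factor receptor that marks early hypoblast, measured 6.75, 7.17 and 6.08 against 7.29, 7.20, 7.42, 7.74 and 7.45. Its other 2 probe sets gave 0.19 and -0.27.

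The epiblast list had 5 measured genes with a median of -0.17. The pluripotency factor SOX2 was separated downward at 4.36 against 4.64, both below the median level of the array, while CRIPTO, a co-receptor of Nodal, averaged 9.25 against 8.76 with overlap. Only 3 gastrulation genes were measured. The Snail repressor SNAI1 stood at -0.11 ± 0.28 (SE), with a sign that turned in 2 of 17 alternatives, and the ligand BMP4 at 0.34, or 0.12 without Grade 3 replicate 3.

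Structural genes were counted in 3 lists. Of 18 extracellular matrix genes 15 had the higher mean, 2 were separated upward and 0 downward, and the median was 0.10, or 0.30 with dim probe sets left out. The separated genes were SPARC and the laminin chain LAMB1, with means of 11.03 in Grade 3 and 10.73 in short Grade 1. Of 20 actin and contractile genes 18 had the higher mean, 3 were separated upward, and the median was 0.14. Caldesmon (CALD1), which restrains myosin on actin, measured 9.001, 8.89 and 9.04 against 8.35, 8.57, 8.54, 8.35 and 8.79. The actin-binding protein TAGLN measured 6.58, 6.79 and 7.98 against 5.42, 5.97, 6.28, 6.33 and 5.41, and the tropomyosin TPM3 differed by 0.14. Integrins and attachment genes, 16 in number, had a median of -0.030, which was 0.017 without Grade 3 replicate 3, and MFGE8 (0.24) and the dim GLYCAM1 (0.23) were separated upward.

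Transporters bring sugars and amino acids from uterine fluid into the trophoblast. Of 21 measured transporters of glucose, lactate and amino acids 4 were separated upward and 2 downward, beside the 2.45% and 4.95% of all genes. SLC2A8, an intracellular glucose transporter expressed in early embryos, measured 8.197, 8.15 and 7.996 in Grade 3 and 7.82, 7.55, 7.40, 7.53 and 7.38 in short Grade 1. SLC2A3, the high-affinity glucose transporter of trophoblast, measured 7.19, 6.96 and 7.15 against 6.52, 6.89, 6.74, 6.07 and 6.05. SLC2A2 and the inositol transporter SLC5A11 (0.20) were the others above. SLC16A3 and SLC7A5, a carrier of large neutral amino acids (8.84 against 9.21), were those below. The median of the list was 0.038, and -0.011 without Grade 3 replicate 1.

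Genes of energy metabolism were counted in 4 lists. The 35 measured subunits of oxidative phosphorylation had a median of -0.040, with 29 lower means, 0 separated genes, and all 35 intervals within 2 fold; NDUFS3, a complex I subunit, had the smallest p, at -0.19, and its other probe set had the opposite sign. The 21 genes of glycolysis and the pentose phosphate route had a median of 0.044 and 0 separated. The lactate dehydrogenase LDHB had the smallest p, at 0.14. The phosphofructokinase PFKP had the largest difference, 0.95 ± 0.63 (SE), with overlapping groups. The 35 fatty acid and PPAR genes had a median of 0.11 and 3 separated upward. They differed by -0.53 (ACSL1) to 0.51 (PPARG), both overlapping. The separated genes were the retinoid receptor RXRG (0.33, with the opposite sign in its other probe set) and the acyl-CoA synthetases ACSL5 (0.35) and ACSL3 (0.29). The 18 cholesterol genes had a median of 0.051, with HMGCS1, which makes HMG-CoA, at 12.14 against 11.89 and the sterol reductase TM7SF2 at 0.16 separated upward. All 18 intervals of cholesterol genes lay within 2 fold.

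Of 33 cell cycle genes 22 had the lower mean, and the median was -0.066. The replication clamp PCNA and the cyclin CCNE1 were separated downward, each by 0.17. The largest difference of the cell cycle list was upward, 1.016 in the cyclin-dependent kinase inhibitor CDKN1C, with overlapping groups. The licensing factor CDC6 had the smallest p, at 8.77 against 9.13. Of 19 genes of p53 response and apoptosis, XIAP, an inhibitor of caspases, was separated upward (0.40) at the low levels of 4.01 and 3.61, and BCL2 was separated downward by 0.16, with the opposite sign in its other 4 probe sets. The median was 0.057.

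Of 41 genes of protein folding and oxidative stress 2 were separated upward and 3 downward, with a median of 0.0041. Those below were the chaperone HSPA8, its partner DNAJA1 and the exchange factor HSPH1. DNAJA1 measured 8.45, 8.30 and 8.47 in Grade 3 and 9.10, 9.15, 8.68, 8.64 and 8.87 in short Grade 1, and HSPA8 averaged 13.83 against 14.04. Those above were the disulfide isomerase PDIA3 (0.16) and catalase (CAT, 0.20). HMOX1, which degrades heme, spread widely in both groups, at 7.95, 9.33 and 7.56 against 10.67, 10.35, 9.09, 8.80 and 8.87.

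Signalling lists were mixed. Growth factors and receptors, 37 genes, had a median of 0.021 with 2 separated in each direction: EGF (0.32) and BMP2 above, MDK and PDGFRA below. Cytokine genes, 16 in number, had a median of 0.023, and IL6, which measured 6.68, 6.58 and 6.66 against 6.29, 5.95, 5.47, 6.07 and 4.62, was separated upward with STAT3 (0.18). The 17 prostaglandin genes had a median of -0.011 and 0 separated, although the prostaglandin transporter SLCO2A1 averaged 8.66 against 7.52. Interferon-stimulated genes, 23 in number, had a median of 0.043, with IFIT2 (0.27) separated upward and IFI35 (-0.44) downward. Of 25 imprinted genes, expressed from 1 parental copy, NAP1L5 (0.49) was separated upward and necdin (NDN) downward, at 5.87, 5.32 and 5.77 against 5.93, 6.69, 6.54, 7.22 and 6.44; the median was -0.018.

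**Figure D3:**
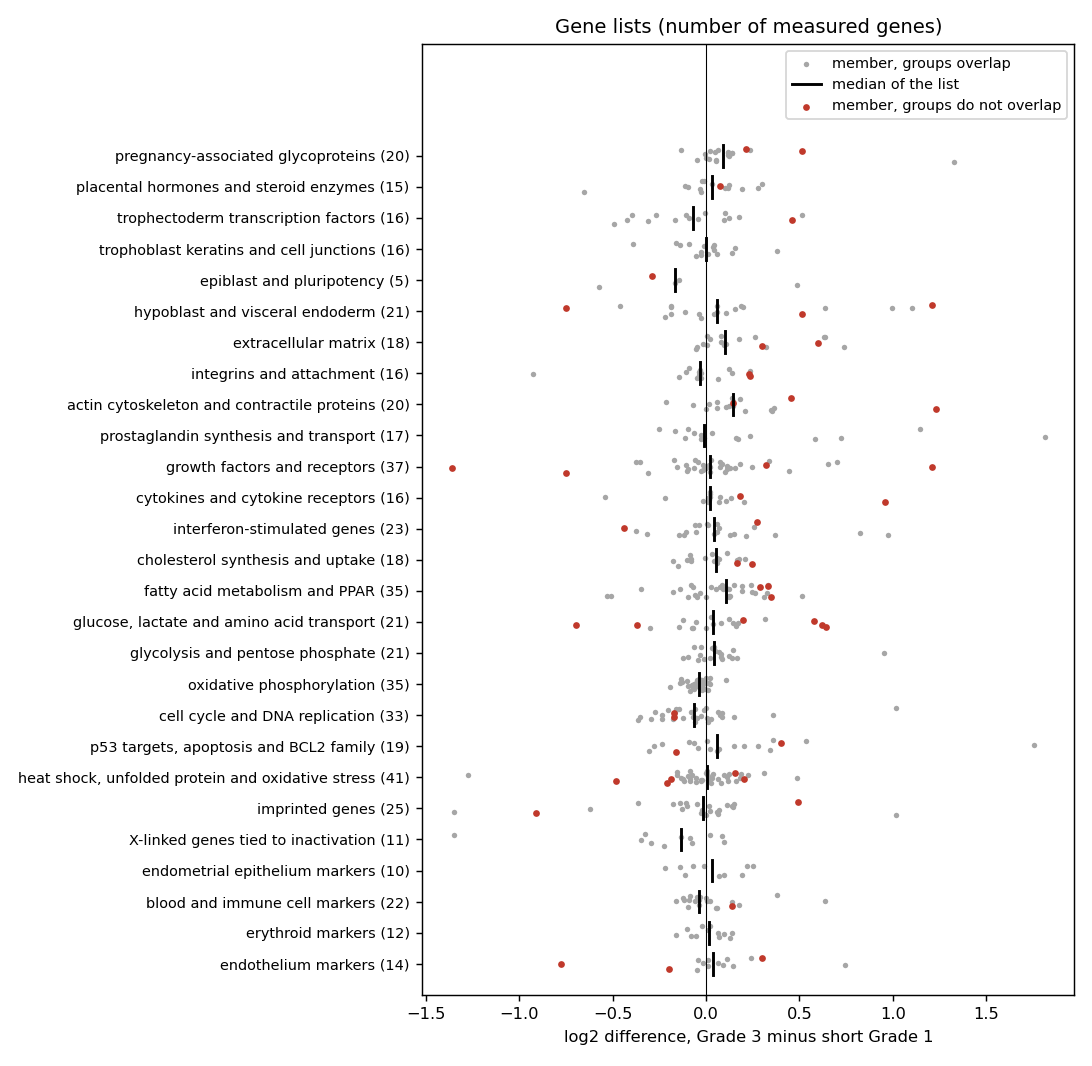
Each point is 1 measured gene of a list and the x axis is its log2 difference, Grade 3 minus short Grade 1; the number of measured genes follows each list name. Red points are genes whose groups do not overlap, and black bars are list medians. Lists with under 5 measured genes are left out, and most medians lie within 0.1 of 0.

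Genes tied to length in Grade 1 conceptuses were looked at next, since the Grade 3 conceptuses have no recorded length. limma called 1577 of 24016 probe sets (6.57%) between 5 long and 5 short Grade 1 conceptuses, and the 8 genes with the largest difference each way were taken. That comparison shares the short conceptuses with the present one, and its genes were chosen on their values, so the levels are set side by side with nothing inferred from them. CKM, the muscle creatine kinase, measured 9.51, 8.87 and 10.29 in Grade 3. It measured 9.35, 7.51, 6.32, 6.23 and 5.83 in short and averaged 10.52 ± 0.41 (SD, n = 5) in long Grade 1. Short replicate 1, the conceptus with conflicting labels, thus lay inside the Grade 3 range. Among these length genes it also did so in PAG12, TP53I3 and PRUNE2. In the others it lay outside that range, as in ATP6V0D2, where its 10.05 was the highest short value. In CKM Grade 3 exceeded short by 2.51 ± 0.72 (SE), which did not pass limma (adjusted p = 0.485). Without short replicate 1 the CKM difference was 3.085 and the groups did not overlap, but it did not pass there either. The other, dimmer CKM probe set gave 0.076, and the mean of both gave 1.29.

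TP53I3, an oxidoreductase induced by p53, measured 8.56, 6.98 and 8.99 in Grade 3, 7.33, 6.64, 6.64, 6.42 and 5.07 in short, and averaged 9.55 in long. Replicate 2 of Grade 3 lay inside the short range and the other two lay above it. PLA2G7, which inactivates platelet-activating factor, measured 11.16, 10.89 and 11.41 in Grade 3 against 10.21, 11.06, 9.26, 9.61 and 6.54 in short, with a mean of 12.16 in long. PAG12 averaged 8.36, 7.03 and 10.18 in Grade 3, short and long. IL6 averaged 6.64, 5.68 and 8.12, and TAGLN 7.11, 5.88 and 8.19 in the same order. The plasma protein fetuin (AHSG) averaged 9.06, 7.96 and 10.13 in the probe set used, with 3 of its 8 probe sets of opposite sign between Grade 3 and short. A probe set among these, of like brightness, averaged 8.86 in Grade 3 and 9.13 in short (-0.27). The probe set used shares the start of its name with that of GATM, a gene given further on. Which gene it measures was not tested. PRUNE2 averaged 5.79, 5.05 and 7.20 in Grade 3, short and long.

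For genes lower in long conceptuses, ATP6V0D2 averaged 8.62 in Grade 3, 9.54 in short and 7.65 in long. PDGFRA averaged 6.67, 7.42 and 5.62 in that order, SLC5A5 6.60, 7.56 and 5.85, and AQP3 5.97, 7.03 and 5.37. In these 4 the Grade 3 and short values were separate. SYBU, a syntaxin-binding protein, averaged 6.62, 7.33 and 5.80, and the gasdermin GSDMC 6.19, 7.32 and 5.91. The semaphorin and VEGF co-receptor NRP1 averaged 3.67, 4.70 and 3.31, and the aminopeptidase XPNPEP2 8.98, 9.86 and 8.49. The other XPNPEP2 probe set gave 0.040 between Grade 3 and short, and the mean of both gave -0.42. In SYBU, GSDMC, NRP1 and XPNPEP2 Grade 3 and short overlapped. The 16 genes did not pass between Grade 3 and short, with limma adjusted p from 0.437 to 0.6.

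**Figure D4:**
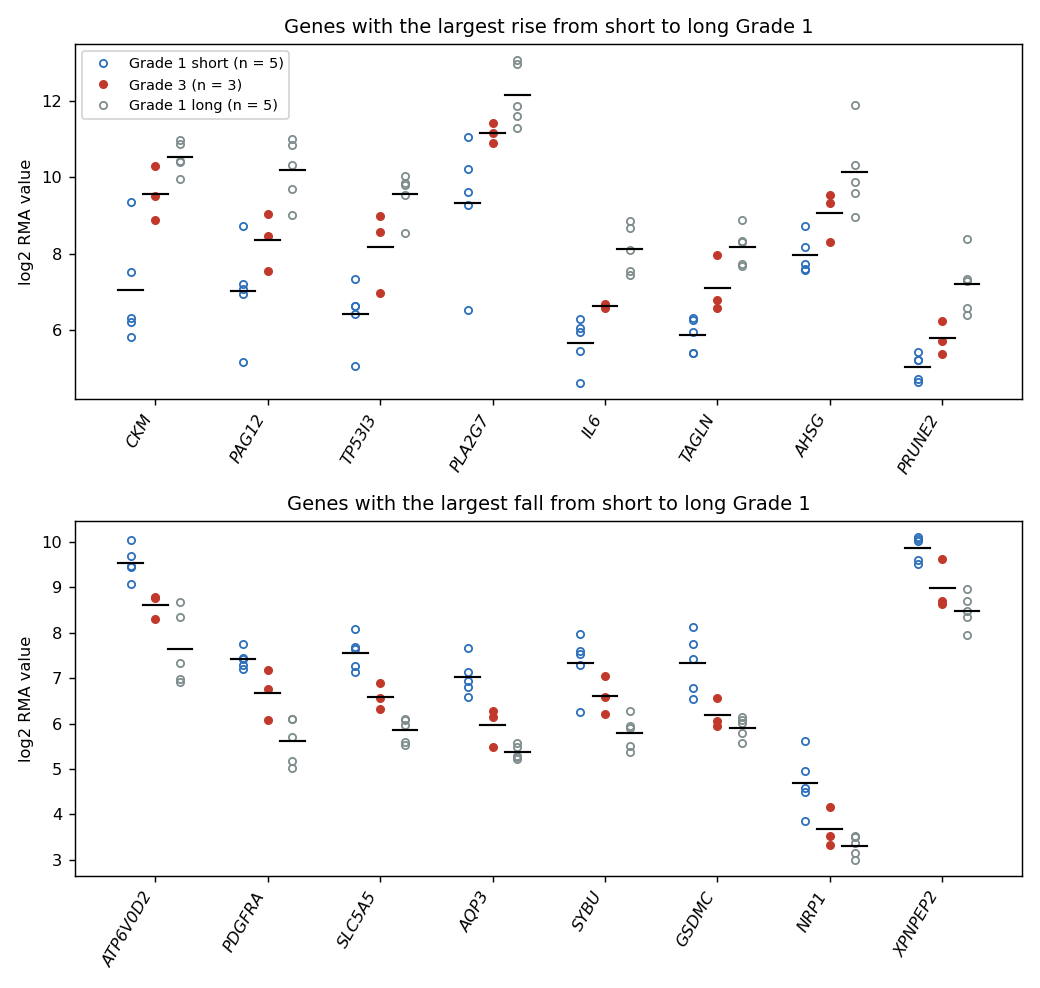
Each point is 1 conceptus and the y axis is its log2 RMA value, for the 16 genes with the largest called differences between long and short Grade 1; black bars are group means. Blue is short Grade 1 (n = 5), red is Grade 3 (n = 3) and grey is long Grade 1 (n = 5). Grade 3 is separate from short in ATP6V0D2, PDGFRA, SLC5A5, AQP3, IL6 and TAGLN and overlaps it in the other genes.

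Sex-linked genes and markers of other cells were given the same reading. Of 11 X-linked genes 8 had the lower mean in Grade 3 (median -0.13), beside a male share of 2 in 3 against 2 in 5. XIST had the largest difference, -1.35 ± 1.56 (SE), and followed sex. KDM5C, a histone demethylase that escapes inactivation, had the smallest p, at -0.33, with the opposite sign in 2 of its 5 probe sets. Of the 3 measured Y-linked genes 0 were separated, and TSPY stood at 0.13, with the opposite sign in 4 of its 10 probe sets. The 10 measured endometrial markers averaged 4.54 to 4.78 in Grade 3 and 4.52 to 4.69 in short Grade 1, with 7 below the median level of the array, 0 separated, and a median of 0.031. They differed by -0.22 (PIP) to 0.25 (LTF), and PAX8 had the smallest p, at 0.19. The 22 blood and immune markers averaged 4.64 to 4.70 against 4.55 to 4.72, with 18 below that level and a median of -0.035. Granzyme B (GZMB) stood at 0.64 with overlapping groups, and at 0.27 without Grade 3 replicate 3. CD4 (0.14) was separated upward, and the pan-leukocyte gene PTPRC lay at 2.96 to 3.30 on all 8 arrays.

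The 12 erythroid markers averaged 4.48 to 4.56 against 4.44 to 4.61, with 11 below the median level, a median of 0.015 and GYPC of smallest p, at -0.16. The alpha globin gene HBA lay between 3.19 and 3.42 on all 8 arrays. The 14 endothelial markers averaged 4.27 to 4.51 against 4.26 to 4.37, with 13 below the median level and a median of 0.038. SOX18 (-0.77) and TEK (-0.20) were separated downward and PECAM1 (0.30) upward, while the defining cadherin CDH5 lay between 3.90 and 4.30. In RNA of whole conceptuses, fewer cells of a type and less RNA per cell cannot be told apart. The part of such cells in the differences above was not tested.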

How the data were processed

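Values are log2 expression per probe set, made with RMA in Affymetrix Expression Console by the authors, per the submitters' processing notes. For the versions, and for which arrays went into one normalisation, nothing is stated in the sources used here. Since RMA equalises the distribution of arrays, a shift of all genes together is lost, and differences at low signal come out too small. Arrays have no read depth, and their number limits the precision. The deposited table held 24128 probe sets without missing values, of which 112 AFFX controls were left out.

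Platform annotation gave 13292 probe sets a single symbol, 86 several and 10638 none, and the latter 2 kinds were tested but not named. Symbols were checked against RefSeq (ARS-UCD2.0) by Entrez number (13263 matched, 0 changed). A gene stands for its brightest probe set over the 14 arrays. Of 739 list genes 550 were measured under their symbol and 9 under a synonym, and 13 genes are in more than 1 list. No sequences or coordinates were used here.

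Grade 3 and short Grade 1 were compared with limma 3.58.1 in R 4.3.3 (lmFit, eBayes; 8 arrays, no covariate, two-sided, Benjamini-Hochberg over 24016 probe sets, threshold 0.05). SE is limma's moderated error. The fit was tested on simulated data for this comparison (24016 probe sets, 200 of them altered). It found 4% of the alterations at 1.25 fold, 54% at 1.5 fold, 94% at 2 fold and 100% at 3 fold, and 8.03% of its calls were false. Named genes were the 12 of smallest p each way at 1.5 fold or more, the gene of smallest p in each list, the brightest of each placental and lineage list, the 8 with the largest called difference each way between long and short Grade 1, and IFNT2. Other list members were named after their values were seen: those separated between the groups, HMOX1, PFKP, CDKN1C, ACSL1, PPARG, PIP, LTF, PTPRC, HBA and CDH5, and XIST as the check of sex. The members and lists were chosen with earlier results of these data known.

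Alternatives were a fit of all 14 arrays, sex as a covariate, the title prefix as a random block, other scalings, a filter on dim probe sets, another prior, another threshold, the mean over a gene's probe sets and each conceptus left out. One more was added after the data were seen, leaving out short replicates 1 and 5.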

Additional observations from a re-analysis of the deposited data

Results flagged for a closer look

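For the 71 named genes, the 5 short Grade 1 conceptuses were searched for a single value far from the others, and for the 16 length genes the 5 long ones too. Of these 87 groups 4 had such a value, and chance gives about 1 in 20. CDH17 in short replicate 5 measured 4.71 against 4.18 for the next and 4.03 for the lowest. TKDP2 in short replicate 2 measured 4.94, with the other 4 between 4.07 and 4.26. CDC6 in short replicate 3 measured 8.83, below the 9.16 to 9.25 of the others and equal, within 0.01, to Grade 3 replicate 2. XIAP in short replicate 1 measured 3.32 where the other 4 lay between 3.67 and 3.70. These 4 values came from 4 different conceptuses.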

How the results depend on the processing

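The count of 0 called probe sets was the same in the alternatives that keep the adjusted threshold and without short replicates 1 and 5. It was 0 to 0 with each conceptus left out in turn, where the smallest adjusted p ran from 0.107 to 0.471. It was 0.0879 in the fit of all 14 arrays, 0.345 with sex as a covariate, 0.0835 with the title prefix as a random block and 0.0766 with quantile normalization once more. The block fit used a correlation within prefixes of -0.169, and 0 prefixes held both groups. A negative correlation narrows the error of the group difference there, so this setting cannot guard against related conceptuses. Leaving out Grade 3 replicate 3 reduced the probe sets with an unadjusted p under 0.05 from 2054 to 1253. At an unadjusted p under 0.01 with 1.5 fold or more, 105 probe sets were counted, 61 higher and 44 lower in Grade 3, since that rule makes no adjustment.

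Of the 71 named genes 4 turned sign, in 8 gene-by-setting values. The IFNT2 log2 difference became -0.0003032 with quantile normalization, -0.003376 without Grade 3 replicate 1, -0.004538 without short replicate 5 (0.052 at most with 1 conceptus left out) and -0.024 without short replicates 1 and 5. The HSD17B1 log2 difference became -0.035 without short replicates 1 and 5, and the KRT18 log2 difference -0.014 with quantile normalization. The SNAI1 log2 difference became 0.079 without Grade 3 replicate 1 and 0.10 without short replicate 2, against -0.28 without Grade 3 replicate 3. The cause was not tested. The mean over a gene's probe sets gave -0.17 for SLC16A3 and 0.28 for SLC2A2. No paired analysis was possible because the labels give no replicate numbers that the groups share.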

Other observations

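Some genes with large differences varied chiefly among single conceptuses; they were picked by the size of the difference after the values were seen, and none passed limma. IGHM, the heavy chain of immunoglobulin M, measured 11.84 and 12.64 in short replicates 3 and 4, which share a title prefix. It measured 12.27 in the Grade 1 conceptus without a length label, of another prefix. The other 3 short conceptuses measured 5.93 to 6.26 and the Grade 3 conceptuses 6.15 to 6.24. Long replicate 3, of the prefix of short replicates 3 and 4, measured 6.22, and long replicates 4 and 5 measured 8.44 and 9.26. DKK1, a secreted Wnt inhibitor, measured 7.64, 5.50 and 9.70 in Grade 3 and 3.96 to 6.19 in short Grade 1. NOS2, the inducible nitric oxide synthase, measured 5.94, 8.05 and 10.31 in Grade 3 and 4.59 to 7.92 in short Grade 1. The zinc finger gene ZNF521 measured 5.43 in Grade 3 replicate 2 and 5.02 in long replicate 5, and 9.81 to 11.09 in the short conceptuses. GATM, which makes the creatine precursor guanidinoacetate, measured 7.92, 6.11 and 7.83 in Grade 3 and 5.11 to 6.63 in short Grade 1.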
